A study of Mus musculus with 2 samples.

Results

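The genes described are Hk1 and Hk2, which encode 2 hexokinases, Pfkfb3, which encodes a kinase that sets the pace of glycolysis, and Egln3, which encodes an oxygen-sensing hydroxylase. They are 4 of the 2381 rows in the table of loci that the authors called different between control and Trrap-deleted cortex of mouse embryos. The 4 were chosen by name from this table with their listed values known, so their fold changes are descriptions and not tests of the choice. Each had 1 row of its own, and none of the 4 was missing.

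RNA sequencing was made from cortex of E14.5 embryos, on a B6/129 background, with 1 library per genotype. The Trrap-deleted library carried 2 floxed Trrap alleles with Nestin-Cre (TrrapF/F NestinCre+). The control is labelled wild type, but its description gives 1 floxed allele with the same Cre (TrrapF/+ NestinCre+), so both libraries carried Nestin-Cre and the control was heterozygous. Nestin-Cre acts in neural progenitors and their descendants, and other cells of the dissected cortex keep their Trrap alleles. Trrap is a scaffold subunit of histone acetyltransferase complexes and a cofactor of Myc. The labels do not give how many embryos were used. The values are FPKM (fragments scaled both for the length of the transcript and for the size of the library), and a gene is called listed when it passed the authors' test at a q-value of 0.05. Without replicate libraries no value has an error, and fold changes set the Trrap-deleted library over the control.

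Hexokinases trap glucose in the cell by phosphorylating it, the first step of glycolysis. Hk1 is the form found in most adult tissues and the main one of the brain, while Hk2 is abundant in muscle and in dividing and tumour cells and is induced by hypoxia and by Myc; both proteins bind the outer mitochondrial membrane. Pfkfb3 makes fructose 2,6-bisphosphate, the strongest activator of phosphofructokinase, and its protein is kept low in mature neurons by degradation. Egln3 (also PHD3) hydroxylates the alpha subunits of hypoxia-inducible factors (HIF), which marks them for destruction in the presence of oxygen. HIF in turn binds the promoters or enhancers of many glycolytic genes, and Egln3, Pfkfb3, Hk1 and Hk2 all belong to its textbook targets. The 4 genes therefore stand on 1 pathway, yet with Trrap deleted the levels of 2 were higher and those of the other 2 lower.

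The promoter sequences are shown because HIF and Myc, which act with acetyltransferase complexes, are known to act on genes of this pathway. They are the 250 bases before the annotated start site, 5′ to 3′ on the strand of the gene, from RefSeq on build GRCm38.p6, which is not the build of the table. Capitals mark the HIF-binding core, ACGTG or GCGTG on either strand, and the E-box CACGTG bound by Myc and Max. An E-box holds ACGTG on both strands and so counts as 2 core matches.
Hk1 (chr10:62340422-62340671, minus strand): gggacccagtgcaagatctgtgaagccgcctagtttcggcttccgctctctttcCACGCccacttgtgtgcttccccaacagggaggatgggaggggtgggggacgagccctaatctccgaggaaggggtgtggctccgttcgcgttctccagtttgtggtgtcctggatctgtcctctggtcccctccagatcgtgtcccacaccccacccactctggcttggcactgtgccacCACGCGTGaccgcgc
Hk2 (chr6:82774455-82774704, minus strand): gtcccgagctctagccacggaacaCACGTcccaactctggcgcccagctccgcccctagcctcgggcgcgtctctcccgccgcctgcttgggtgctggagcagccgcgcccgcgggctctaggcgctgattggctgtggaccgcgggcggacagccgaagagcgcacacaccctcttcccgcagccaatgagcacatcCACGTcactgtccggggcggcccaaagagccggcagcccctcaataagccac
Pfkfb3 (chr2:11502091-11502340, minus strand): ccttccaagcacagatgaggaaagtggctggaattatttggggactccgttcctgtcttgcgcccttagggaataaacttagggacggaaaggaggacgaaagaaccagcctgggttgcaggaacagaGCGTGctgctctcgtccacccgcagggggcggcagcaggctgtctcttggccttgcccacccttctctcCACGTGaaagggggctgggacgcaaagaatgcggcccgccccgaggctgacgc
Egln3 (chr12:54203875-54204124, minus strand): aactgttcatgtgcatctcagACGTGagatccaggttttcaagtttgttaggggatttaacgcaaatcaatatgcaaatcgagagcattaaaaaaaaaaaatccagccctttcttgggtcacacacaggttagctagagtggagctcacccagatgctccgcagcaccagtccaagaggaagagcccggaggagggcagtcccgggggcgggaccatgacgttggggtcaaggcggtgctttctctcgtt

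Hk1 and Pfkfb3 have 2 windows each in the RefSeq table, and the window with more core matches is shown for each. Within the whole 300-base windows, which run 50 bases past the start site, the shown Hk1 window held 5 core matches, 2 of them after the start and not printed, and its other window held 0. The Hk2 window held 2, at positions -226 and -52 from the start. The shown Pfkfb3 window held 4, of which 2 lie in its E-box at position -53 and 1 lies after the start, and its other window held 1. The Egln3 window held 1, at position -229. Of 32851 windows of the same length, 43.8% held at least 1 core match and 20.6% held 2 or more, while 7.15% held an E-box. Counted by gene, 46.7% of 27025 genes had a core match in at least 1 window and 8.09% had an E-box. The share with 2 or more matches is given by window only. Matches were thus found for both higher genes and both lower genes, for Hk1 in 1 of its 2 windows, and among the 4 genes an E-box was found in the Pfkfb3 window alone. The shown Pfkfb3 start lies 30.7 kb from the annotated end of the gene, close to the 30.9 kb of the listed locus, while the start of the other window lies 82.5 kb from it. For Hk1 it is the window with 0 matches whose start, 111.1 kb from the annotated end, lies close to the 111.9 kb of the listed locus, while the start of the shown window lies 71.6 kb from it.

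**Figure D1:**
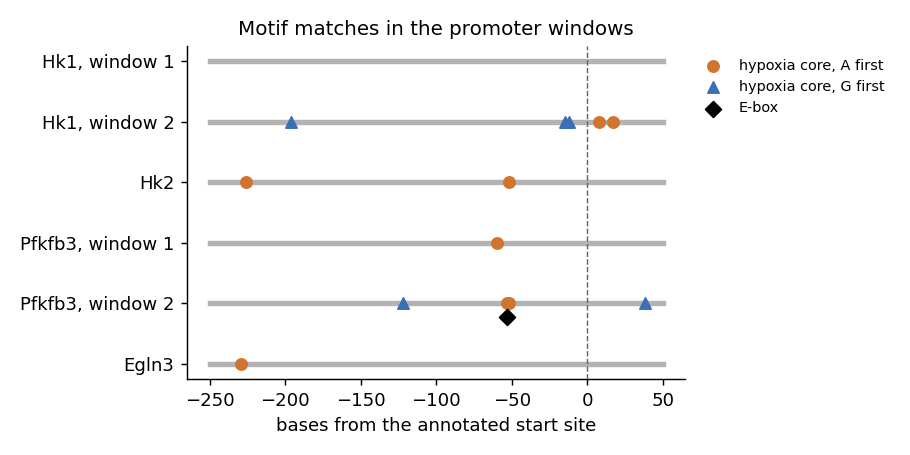
Positions of motif matches in the promoter windows of Hk1, Hk2, Pfkfb3 and Egln3, in bases from the annotated start site (dashed line), for each RefSeq window. Circles and triangles are the 2 forms of the HIF-binding core and the diamond is the E-box; the first Hk1 window has no match and the E-box lies in the second Pfkfb3 window.

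Hk1 (chromosome 10, 61730709 to 61842656 on mm9, the whole gene) had 17.6 FPKM in the control library and 36.8 FPKM in the Trrap-deleted library. This is a difference of 19.2 FPKM and a log2 fold change of 1.07 (2.10-fold higher). Hk2 (chromosome 6, 82675019 to 82724448) had 9.46 FPKM in the control library and 3.16 FPKM in the Trrap-deleted library, a log2 fold change of -1.58 (2.99-fold lower). The control library was thus the lower of the 2 for Hk1 and the higher for Hk2. In the authors' deposited table the q-value was 9.44e-08 for Hk1 and 0.00523 for Hk2, so the smaller fold change had the lower q-value.

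The ratio of Hk1 to Hk2 moved more than either gene, as it must when the 2 genes differ in opposite directions. Within the control library Hk1 had 1.86 times the FPKM of Hk2, and within the Trrap-deleted library it had 11.6 times, a 6.27-fold change of the ratio. Each ratio is taken inside 1 library, so it does not depend on how the libraries were scaled to each other. Of the summed FPKM of both hexokinases, Hk2 made up 35.0% in the control library and 7.92% in the Trrap-deleted library. The sum itself was 27.01 FPKM in the control library and 39.9 FPKM in the Trrap-deleted library, 1.48-fold higher. As the gain of Hk1 was 19.2 FPKM and the loss of Hk2 was 6.30 FPKM, the sum was not held level as deposited. Its log2 fold change of 0.56 became 0.02 with the median of the listed rows set to 0, and 0.91 when their summed FPKM was made equal. The direction of the sum kept its sign, but its size rested on the scaling. The further hexokinase genes Hk3 and Hkdc1 had no row, which does not show that they were unchanged or silent.

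**Figure D2:**
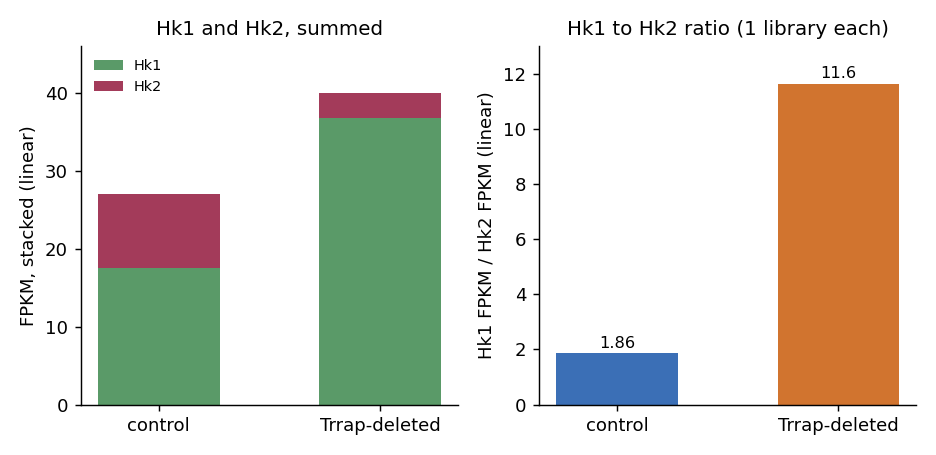
Left, FPKM of Hk1 and Hk2 stacked for the control and the Trrap-deleted library; right, Hk1 FPKM divided by Hk2 FPKM in each library, both on linear axes and without error bars since each genotype has 1 library. The stacked sum is 27.01 FPKM in the control and 39.9 FPKM in the Trrap-deleted library, and the ratio is 1.86 and 11.6.

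The hexokinase rows were little exposed to reads from other genes. In GENCODE M21, 0 of the 50-base words of Hk2 transcripts occurred in transcripts of another gene, and 0 words were shared between Hk1 and Hk2. For Hk1, 1.22% of the words were shared, all with Hk1os, a gene on the opposite strand that covers 1.84% of the exonic bases of Hk1. For Pfkfb3 the share was 0.376%, and for Egln3 it was 0. The listed loci of Hk1, Hk2 and Egln3 had nearly the annotated length, while that of Pfkfb3 covered 0.374 of the annotated 82.6 kb, so a transcript from its far start would not be inside the listed interval.

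Pfkfb3 (chromosome 2, 11393057 to 11423983) had 16.1 FPKM in the control library and 5.88 FPKM in the Trrap-deleted library. Its log2 fold change was -1.46 (2.74-fold lower), with a q-value of 0.0110 in the authors' deposited table. The gene stood close to Hk1 in the control library and well below it in the Trrap-deleted library, as the ratio of Hk1 to Pfkfb3 was 1.09 and then 6.25. By contrast, the ratio of Pfkfb3 to Hk2 was 1.71 in the control library and 1.86 in the Trrap-deleted library. Pfkfb3 and Hk2 were thus lower to much the same degree.

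Egln3 (chromosome 12, 55279968 to 55304847) had 4.12 FPKM in the control library and 8.81 FPKM in the Trrap-deleted library. Its log2 fold change was 1.10 (2.14-fold higher), with a q-value of 0.00155 in the authors' deposited table. The ratio of Hk1 to Egln3 was 4.26 in the control library and 4.18 in the Trrap-deleted library, so these 2 genes were higher by nearly the same factor although Hk1 is the more abundant.

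The order of the 4 levels differed between the libraries. In the control library it was Hk1, Pfkfb3, Hk2 and Egln3, and in the Trrap-deleted library it was Hk1, Egln3, Pfkfb3 and Hk2. Egln3 went from the lowest of the 4 to the second highest, and Hk1 was the highest in both. Without replicates it cannot be said which neighbours in this order differ beyond the spread between embryos, and Hk1 and Pfkfb3 in the control library lay only 1.09-fold apart.

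**Figure D3:**
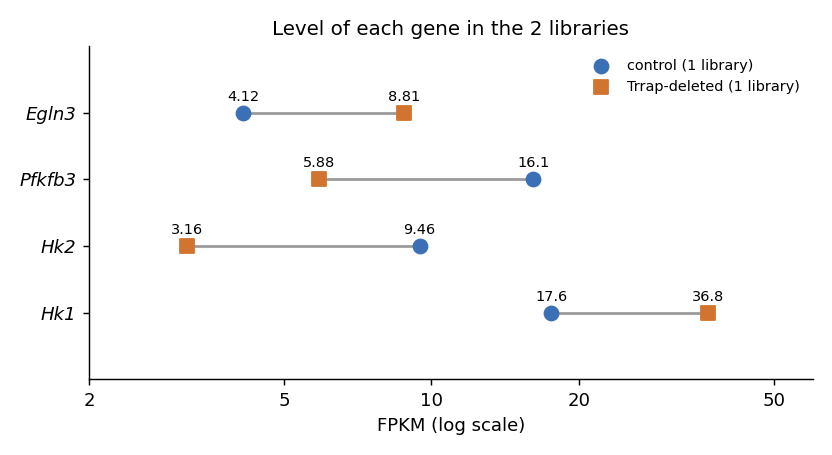
FPKM of Hk1, Hk2, Pfkfb3 and Egln3 on a log axis, circles for the control library and squares for the Trrap-deleted library, with 1 library each and no error. Hk1 and Egln3 lie to the right in the Trrap-deleted library (36.8 and 8.81 FPKM), and Hk2 and Pfkfb3 lie to the left (3.16 and 5.88 FPKM).

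Among all listed rows the 2 decreases were the less common kind. In the Trrap-deleted library 58.0% of the 2381 rows were higher and 42.0% lower, 25.5% were at least 2-fold higher and 13.6% at least 2-fold lower. All 4 genes passed 2-fold as deposited, Hk1 and Egln3 upward and Hk2 and Pfkfb3 downward, and since they were chosen on this contrast nothing is read from that count. Hk2 had the 91st and Pfkfb3 the 125th largest decrease of 998 lower rows with values above 0 in both libraries. Egln3 had the 527th and Hk1 the 547th largest increase of 1378 higher rows. The decreases of Hk2 and Pfkfb3 were therefore among the larger ones listed, and the increases of Hk1 and Egln3 were in the middle of theirs. Rows of like abundance were mostly higher: of the 238 rows with a mean between 5.69 and 9.38 FPKM, the tenth of the table that holds both Hk2 and Egln3, 65.1% were higher. The share was 59.1% in the tenth of Pfkfb3 and 58.6% in that of Hk1.

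The place of each gene within its own library restates the same values as ranks. The rows ranked are only those that passed the authors' test between the 2 libraries, so the ranks are not independent of that comparison. Hk1 stood above 57.3% of the listed rows in the control library and above 73.4% in the Trrap-deleted library. Egln3 stood above 29.4% of the rows and then above 38.5%. Hk2 stood above 43.3% of the rows and then above 20.5%, and Pfkfb3 above 55.3% and then above 30.1%. As ranks, Hk1 and Egln3 stood higher, and Hk2 and Pfkfb3 lower, in the Trrap-deleted library, which describes the same contrast and adds no support to it.

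**Figure D4:**
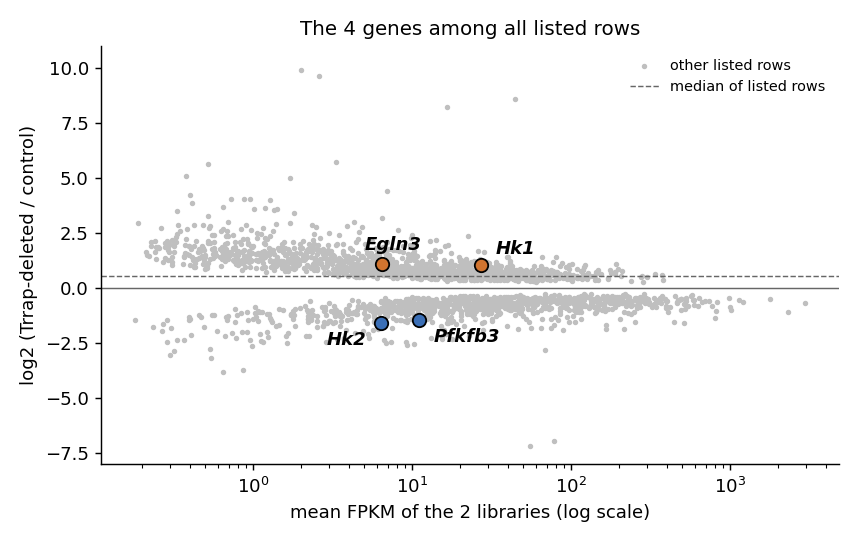
Log2 fold change (Trrap-deleted over control) against the mean FPKM of the 2 libraries on a log axis, for the 2376 listed rows with values above 0 in both; the dashed line is their median of 0.54. The gap around 0 is there because only rows that passed the authors' test are listed; Hk2 (-1.58) and Pfkfb3 (-1.46) lie below the median of the lower rows (1.74-fold lower).

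The scaling between libraries bears on the size of each change and not on its direction. The median log2 fold change of the listed rows was 0.54, above 0. Rescaled to a median of 0, Hk1 stood at 0.52, Egln3 at 0.55, Hk2 at -2.12 and Pfkfb3 at -2.00. Under that scaling the increases of Hk1 and Egln3 no longer reached 2-fold, and all 4 kept their direction under each scaling tried.

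The rows nearest to each gene in both libraries, by distance in log2 FPKM over the 2 libraries, were these. Nearest to Hk1 were Ttpal (17.5 to 36.6 FPKM), Rab3d (16.9 to 36.03 FPKM) and Snapin (18.6 to 35.2 FPKM). Nearest to Hk2 were Efna4 (10.03 to 3.26 FPKM), Emp1 (9.09 to 2.95 FPKM) and Gm11805 (8.49 to 3.02 FPKM). Nearest to Pfkfb3 were Zfp184 (15.9 to 6.24 FPKM), Gm8420 (15.8 to 6.31 FPKM) and Sh3bp2 (15.03 to 5.59 FPKM). Nearest to Egln3 were Habp4 (4.09 to 8.97 FPKM), Selm (4.12 to 8.56 FPKM) and Tmem170 (4.25 to 8.67 FPKM). With only 2 libraries, likeness here means similar levels in each and nothing more.

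Of 97 glucose metabolism symbols in 4 lists, 20 were listed, 15 higher and 5 lower. This is 75% higher, beside 58.0% of all listed rows. The median log2 fold change of the 20 genes was 0.86, beside 0.54 for all listed rows. Without Hk1, Hk2 and Pfkfb3 there were 17, of which 14 were higher and 3 lower. After rescaling to a median of 0, which by construction leaves as many listed rows above 0 as below it, 13 of the 20 were higher and 7 lower. The 3 other lower genes were Eno1, Pgk1 and Ldhb, and all 3 have processed copies in the genome: 26.0% of the 50-base words of Eno1, 53.9% of those of Pgk1 and 21.0% of those of Ldhb occur in transcripts of other genes, so their values are uncertain. Leaving out the genes whose reads or loci may be shared, a step added after the data were seen, 13 glucose metabolism genes were higher and 2 lower, and these 2 were Hk2 and Pfkfb3.

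At the steps of glycolysis next to Hk1 and Hk2, both listed phosphofructokinase genes were higher as deposited. Pfkl, the liver-type subunit, had 33.5 FPKM in the control library and 61.5 FPKM in the Trrap-deleted library. Pfkm, the muscle-type subunit, had 35.3 and 49.7 FPKM, at a listed locus 2.35 times the annotated length, and its log2 fold change was 0.49 as deposited and -0.05 with the median set to 0. The enzyme and its activator-forming kinase thus stood apart: the ratio of Pfkl to Pfkfb3 was 2.08 in the control library and 10.5 in the Trrap-deleted library.

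A second isozyme pair further down the pathway, picked after its values were seen, differed in a similar manner. Eno2, the neuronal enolase, had 12.2 FPKM in the control library and 28.2 FPKM in the Trrap-deleted library (2.31-fold higher), and Eno1, the enolase of most embryonic cells, had 183 and 112 FPKM (1.63-fold lower). The ratio of Eno1 to Eno2 was 14.9 in the control library and 3.98 in the Trrap-deleted library. The ratio of Hk1 to Eno2 was 1.43 and 1.30, so these genes differed by similar factors. Pgk1, phosphoglycerate kinase, had 109 and 83.5 FPKM, and Ldhb, a lactate dehydrogenase subunit, had 115 and 55.2 FPKM. The 22 other symbols of the glycolysis list, among them Gapdh, Pkm and Ldha, had no row.

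The 4 listed genes of sugar and lactate transport were all higher as deposited, beside 58.0% of all listed rows. Pfkfb3, which stands in the same list, was lower. Slc2a13, a myo-inositol transporter of the glucose transporter family, had 2.67 and 8.21 FPKM in the control and Trrap-deleted library. Slc2a10, a member of the same family, had 0.185 and 0.561 FPKM, a low level in both. Slc16a7, a transporter of lactate and pyruvate, had 1.34 and 3.49 FPKM, and Bsg, the chaperone of lactate transporters, had 88.6 and 130 FPKM. The log2 fold change of Bsg was 0.56 as deposited and 0.01 with the median set to 0. The main glucose transporter genes of brain, Slc2a1 and Slc2a3, had no row, nor had the sister genes Pfkfb1, Pfkfb2 and Pfkfb4.

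Branches that leave the pathway after the hexokinase step were higher in 6 of 6 listed genes of 24, beside 58.0% of all listed rows, with a median log2 fold change of 1.14 beside 0.54 for all listed rows. After the rescaling to a median of 0, 5 of the 6 were higher, with a median of 0.60. On the glycogen branch, Gyg, which primes glycogen, had 8.84 and 18.4 FPKM, and Gbe1, the branching enzyme, had 4.26 and 10.6 FPKM. Pgm2, a phosphoglucomutase, had 4.77 and 14.1 FPKM at a listed locus 6.47 times the annotated length, so its value is uncertain. On the pentose phosphate branch, H6pd had 0.903 and 2.10 FPKM, and Taldo1, transaldolase, had 84.6 and 112 FPKM, at a log2 fold change of 0.40 as deposited and -0.15 with the median set to 0. Of 17 symbols for the entry of pyruvate into mitochondria, Pcx, pyruvate carboxylase, was listed, with 5.58 and 9.97 FPKM, and the Pdk kinases were not.

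**Figure D5:**
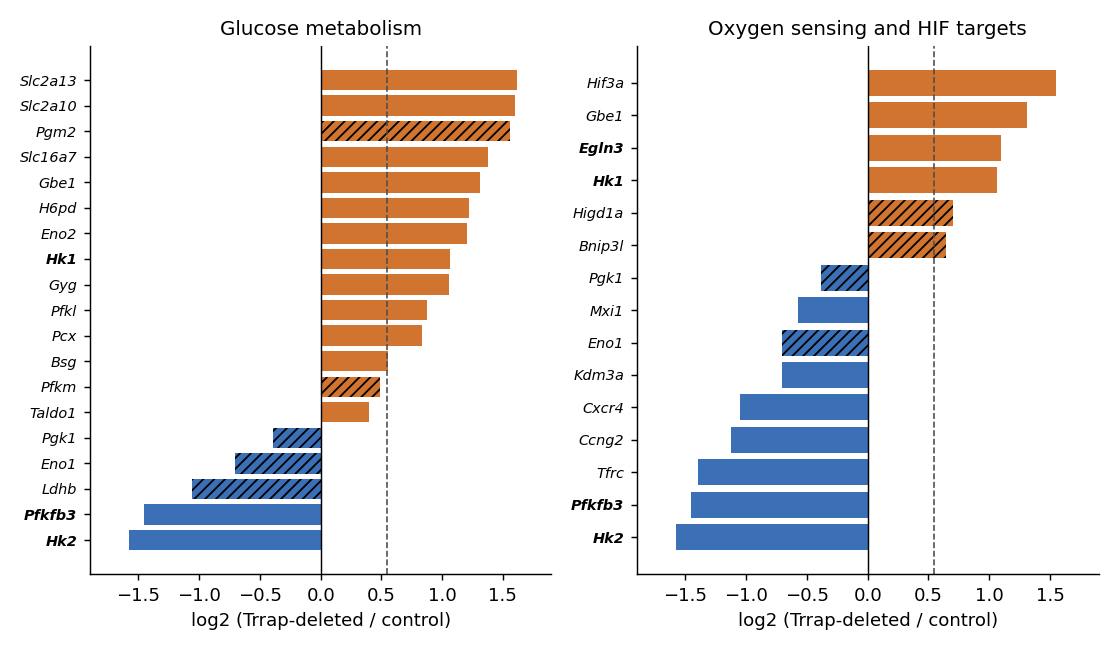
Log2 fold change (Trrap-deleted over control) of the listed genes of the glucose metabolism lists (left, 20 genes, of which 1 is not shown) and of the oxygen-sensing and HIF target lists (right, 15 genes); solid line 0, dashed line the median of all listed rows (0.54), bold names the 4 genes described, hatching genes whose reads or locus may be shared. Hk2 and Pfkfb3 have the lowest bars in both panels, while Hk1 and Egln3 lie among the higher genes.

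Of 81 symbols of oxygen sensing and HIF targets 15 were listed, 6 higher, like Egln3, and 9 lower. This is 40% higher, beside 58.0% of all listed rows. The median log2 fold change of the 15 genes was -0.58, beside 0.54 for all listed rows, and 6 of the 15 also stand in the glucose lists. Without Hk1, Hk2, Pfkfb3 and Egln3 there were 11, of which 4 were higher and 7 lower. The counts of 6 and 9 were the same after both rescalings. Within the oxygen-sensing pathway 2 of 26 genes were listed, Egln3 and Hif3a, an HIF alpha subunit with inhibitory splice forms, which had 5.07 FPKM in the control library and 14.9 FPKM in the Trrap-deleted library (2.93-fold higher). The ratio of Egln3 to Hif3a was 0.813 and 0.592. Hif1a, Epas1, Arnt, Vhl, Egln1 and Egln2 had no row.

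Among the HIF targets that were lower with Hk2 and Pfkfb3, Tfrc, the transferrin receptor, had 24.3 FPKM in the control library and 9.24 FPKM in the Trrap-deleted library. Ccng2, cyclin G2, had 65.2 and 29.97 FPKM, and Cxcr4, a chemokine receptor, had 23.7 and 11.5 FPKM. Kdm3a, a histone demethylase, had 37.8 and 23.2 FPKM, and Mxi1, a Max partner that opposes Myc, had 11.3 and 7.61 FPKM. These 5 genes were lower by 1.49-fold to 2.63-fold, less than Pfkfb3 and Hk2. Higher with Egln3 and Hk1 were Gbe1, given above, the mitochondrial gene Higd1a (9.17 and 14.9 FPKM) and the mitophagy gene Bnip3l (147 and 231 FPKM), the last 2 with 24.4% and 20.8% of their words in other transcripts. Vegfa, Adm, Bnip3, Pdk1 and Slc2a1, often used as readouts of hypoxia, had no row.

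Genes that act on hexokinase or on its transcription were listed in part. Of 14 genes for hexokinase partners at the mitochondrial membrane and related kinases 2 were listed, among them Bax, a cell death effector (44.8 and 66.6 FPKM). The Vdac genes, which encode the mitochondrial docking site of hexokinase, had no row. Of 17 symbols of the Myc and Mondo network 4 were listed. Txnip, an inhibitor of glucose uptake that Mondo factors induce, had 37.8 and 66.7 FPKM, at a locus 2.81 times the annotated length, and its relative Arrdc4 had 12.5 and 22.8 FPKM. Arrdc3 had 35.7 and 20.3 FPKM, Mxi1 is given above, and Myc and Mycn had no row. Of 23 nutrient-sensing genes, Sesn2 (1.505 and 3.25 FPKM) and Tsc2 (20.7 and 31.96 FPKM, at a locus 2.25 times the annotated length) were higher and Ulk1 (30.1 and 20.9 FPKM) was lower. Of 23 citrate cycle genes, Idh1 (118 and 51.8 FPKM) and Idh2 (117 and 80.6 FPKM, at a locus 4.41 times the annotated length) were lower and Suclg2 (7.02 and 11.9 FPKM) was higher.

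Other transcripts differed along with these 4 genes between the same 2 libraries, and their part in the results was not tested. Trrap had 0 rows, so the labels could not be checked on its transcript. The marker counts that follow stand beside 58.0% higher and 42.0% lower among all listed rows. Of 20 markers of embryonic cortex 4 were listed, 1 higher and 3 lower, at high levels in both libraries. With the median set to 0, 0 were higher and 4 lower, and with the summed FPKM made equal 2 were higher and 2 lower. Neurod6 (312 and 260 FPKM) and Neurog2 (89.6 and 112 FPKM) were the highest. The direction of these 2 changed with the scaling, while the others were lower under each scaling. All 10 listed microglial markers of 18 were higher (summed 12.6 and 32.4 FPKM, led by C1qb at 2.39 and 6.09 and Tyrobp at 2.26 and 5.21), as were all 6 listed meningeal markers of 16 (summed 2.77 and 15.7 FPKM, led by Dcn at 1.79 and 6.34 and Col3a1 at 0.558 and 4.13). The endothelial and pericyte list had 2 listed of 18 (summed 2.07 and 4.24 FPKM, Pdgfrb at 1.71 and 3.60 and Cspg4 at 0.353 and 0.635), and Pecam1 and Cdh5 had no row. Erythroid cells had 2 listed of 15, Hbb-y (96.8 and 157 FPKM) and Tfrc. Choroid plexus had Ttr (0.104 and 3.31 FPKM) of 8. Glial markers had 5 listed of 15 (summed 57.0 and 116 FPKM), 4 of them higher, led by Slc1a3 (30.7 and 55.1 FPKM) and Clu (15.01 and 34.6 FPKM). Ventral telencephalic markers had 5 listed of 17 (summed 34.5 and 25.3 FPKM), 4 of them lower, among them Lhx6 (7.06 and 1.71 FPKM), named with its values known. The proliferation marker Mki67, named with its values known, had 70.2 and 43.1 FPKM. Of the sex-linked transcripts, 4 of 8 were listed, led by Xist (313 and 142 FPKM) and the Y-linked Eif2s3y (0.111 and 32.8 FPKM), so the libraries also differed in transcripts that mark sex. The Trrap-deleted library thus held both Xist and a Y-linked transcript, and whether it came from embryos of both sexes was not tested. No listed marker was at 0. In bulk cortex, fewer cells of a type cannot be told apart from less RNA per cell, and genotype, embryo and sex cannot be told apart with 1 library each.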

How the data were processed

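RNA sequencing was made from 1 control and 1 Trrap-deleted cortex sample, with 2.5 µg of total RNA per library per the labels' protocols. Reads were aligned with TopHat2 to mm9, per the submitters' processing notes. No source used here names the tools for counting and testing. The 2 value columns were read as FPKM as the authors deposited them, a unit inferred from the table layout. The p-values and q-values are those the authors deposited. The table holds only rows the authors marked significant (highest q-value 0.0500), so the depth of the libraries is unknown and a gene with no row is not listed, never unchanged. Strand was not stated, and the labelled kit does not mark it.

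Fold changes, ratios and counts were computed with Python 3.11.15 and pandas 2.3.3, with no pseudocount. The fold change and scaling steps were tested on simulated data. The fold changes differed from the authors' log2 values by at most 1.18e-05. With 1 library per group no test was run. Locus starts were moved to 1-based counting. The 4 genes and the 19 gene lists (10 of pathways, 240 symbols, and 9 of markers) were chosen with earlier results of these data known. List sizes count symbols, and some genes stand under both an older and a newer symbol, such as Pkm2 and Pkm. Named were the 4 genes, each listed pathway gene with a row of its own (40), the 2 highest members of each marker list and the 3 nearest rows to each gene; where a symbol had several rows the highest was used, and 59 rows naming several symbols were not used in lists. GENCODE M21 was used, by symbol, for gene length, overlap and 50-base words shared with other genes. A gene was called uncertain above 20% shared words or exonic bases, or at over 1.5 times the annotated length (11 of 40). Some genes of these lists that the rule would name are not reported here, but they stay in the counts and sums.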

Additional observations from a re-analysis of the deposited data

How the results depend on the processing

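With 1 library per genotype no replicate could be left out, and no paired analysis was possible because each group has 1 sample. Setting the median log2 fold change of the listed rows to 0 shifted every value by -0.54, and setting the summed FPKM equal shifted it by 0.35. Under these 2 scalings the log2 fold change was 0.52 and 1.41 for Hk1, 0.55 and 1.44 for Egln3, -2.12 and -1.23 for Hk2, and -2.00 and -1.11 for Pfkfb3. With a pseudocount of 0.1 FPKM it was -1.55 for Hk2, -1.44 for Pfkfb3 and 1.08 for Egln3. With a pseudocount of 1 FPKM it was 1.03 for Hk1, -1.33 for Hk2, -1.32 for Pfkfb3 and 0.94 for Egln3. None of these settings changed the direction of the 4 genes. The Hk1 to Hk2 ratio with a pseudocount of 0.1 and of 1 FPKM was 1.85 and 1.77 in the control library and 11.3 and 9.08 in the Trrap-deleted library; the cause is the construction of the ratio, whose divisor is small. The 5 lower glucose metabolism genes became 3 at a q-value of the authors under 0.01, which drops Pfkfb3 and Pgk1, and 2 without genes whose reads or locus may be shared. The other counts stayed within 1.5 times of their value under the settings tried. The depth is unknown, so no limit on detection could be set for any gene.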

Other observations

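Promoter windows were also counted over the other listed pathway genes, as a description made after the values were seen and with no test. RefSeq windows matched 35 of the 40 listed pathway genes. All 14 lower genes, Hk2 and Pfkfb3 among them, had a HIF-binding core (ACGTG or GCGTG, either strand) in at least 1 window, and 15 of the 21 higher genes with a window did, Hk1 and Egln3 among them, beside 46.7% of all 27025 genes with windows. The ACGTG form was found in 6 of the 14 and in 10 of the 21, beside 21.8% of all genes. An E-box was found in 1 of the 14, Pfkfb3, and in 5 of the 21, beside 8.09% of all genes. Of the listed pathway genes, 9 of the 14 lower and 5 of the 26 higher stand in the HIF target list, so the groups differ in known HIF targets. The windows of the lower genes had a median of 66.7% G and C, against 59.8% for the higher genes and 52.7% for all windows. The part of either difference in these counts was not tested.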
